A study of Saccharomyces cerevisiae with 15 samples.

Results

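Budding yeast (Saccharomyces cerevisiae) carrying an HSF1 allele with both of its Hsp70 contact sites mutated (hsf1-mNmC) was compared with yeast in which the amino-terminal site alone is mutated (hsf1-mN). The comparison asks what the carboxyl-terminal mutation adds to mN. Its 6 libraries, 3 for each genotype, were chosen by their labels from 15 messenger RNA libraries. The other libraries, 3 of each kind, came from hsf1-mC (the carboxyl-terminal site alone mutated), from wild type moved to 37 °C for 15 min and from wild type kept at 30 °C. The mutants were kept at 30 °C, and like the 30 °C wild type they were untreated. All cultures had reached mid-log phase in YPD, a rich medium. The design text calls the 3 libraries of a group biological replicates. The strain background, the ploidy and how the alleles were introduced are not stated in the labels. Levels are FPKM (fragments per kilobase of gene, scaled to the library's counted reads), and of 7126 genes in the table, the 6399 that reached 1 FPKM in 3 or more libraries were tested.

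Hsf1 is the transcription factor that drives the chaperone genes of the yeast heat shock response and also their basal levels, by binding heat shock elements, which are repeats of the unit nGAAn in alternating orientation. The chaperone Hsp70 binds Hsf1 and holds it back in unstressed cells. When heat produces misfolded proteins that occupy Hsp70, Hsf1 is released, and the Hsp70 made in turn restrains it again. The sites mutated in mN and mC are contacts for Hsp70 on either end of Hsf1.

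Whole reads recovered from the deposited values numbered 15462618 to 18856476 in the mNmC libraries and 20689879 to 23795299 in the mN libraries. In mNmC replicate 1, which had the fewest, 1 read per kilobase of gene corresponds to 0.0647 FPKM. The library labelled mNmC replicate 3 stood apart. Over all tested genes its mean Spearman correlation was 0.9965 with replicates 1 and 2 of wild type at 37 °C and 0.9214 with the other two mNmC libraries, which correlated at 0.996 with each other. In turn, the library labelled wild type 37 °C replicate 3 correlated at 0.9964 with mNmC replicates 1 and 2. Results are therefore given as labelled (15 libraries in the fit) and with 13 libraries, that is, without these 2, where mNmC has 2 libraries and mN 3. The 37 °C library bears on the spread of the fit, not on a fold change of mNmC over mN. Wherever 3 mNmC values are given, the last is the library labelled replicate 3. Fold changes are log2 values of FPKM + 1, mNmC over mN, ± SE, and p-values of the limma test carry the Benjamini-Hochberg adjustment over every gene tested. A gene is called at an adjusted p under 0.05. A level is a share of a library's reads, so less RNA of a gene per cell and more RNA of other genes cannot be told apart.

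In mNmC the genes of a pair of chromosomes were displaced as a body. With 13 libraries the 133 tested genes of chromosome VI had a median fold change of -0.58, with quartiles of -0.95 and -0.29, and the 154 genes of chromosome III had a median of 0.66, with quartiles of 0.34 and 0.94. The other 14 chromosomes had medians of 0.21 to 0.27. Both arms shared the shift, at -0.51 on the left and -0.69 on the right arm of chromosome VI, and at 0.62 on the left and 0.67 on the right arm of chromosome III. Relative to the 14 chromosomes, the shifts were -0.82 for chromosome VI and 0.42 for chromosome III. The test called 86 genes of chromosome VI lower (64.7%) and 9 higher (6.77%), where 10.6% of all tested genes were lower and 39.6% higher. Of the genes of chromosome III, it called 120 higher (77.9%) and 2 lower (1.30%).

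Each library was also set against the mean of wild type at 30 °C. The median of chromosome VI stood at -0.64 and -0.55 in mNmC replicates 1 and 2, while it stood at 0.39 in the library labelled mNmC replicate 3. In mN it stood at -0.02, 0.12 and 0.17. For chromosome III the values were 0.65, 0.69 and 0.23 in mNmC, against -0.09, 0.10 and 0.12 in mN. The library labelled wild type 37 °C replicate 3 had -0.62 on chromosome VI and 0.66 on chromosome III, and the other two libraries at 37 °C had 0.36 and 0.44 on chromosome VI and 0.24 and 0.26 on chromosome III. The shift thus occurred in mNmC replicates 1 and 2 and in the library labelled 37 °C replicate 3, and in no other of the 15. Neither was it seen in mC, whose median over wild type was 0.18 on chromosome VI and 0.10 on chromosome III. The copy number of chromosomes was not measured, and its part in the results was not tested, so the chromosome is given below for genes of chromosomes III and VI. Among those of chromosome VI were ACT1 and TUB2, which encode actin and beta-tubulin and were picked out after their values were seen. ACT1 (YFL039C) read 1473, 1349 and 2879.6 FPKM in mNmC, against 5122, 3255 and 3067 FPKM in mN, a change of -1.396 ± 0.17 with 13 libraries (adjusted p = 0.000118), and TUB2 (YFL037W) changed by -1.20 ± 0.06 (adjusted p = 3.02e-07).

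**Figure D1:**
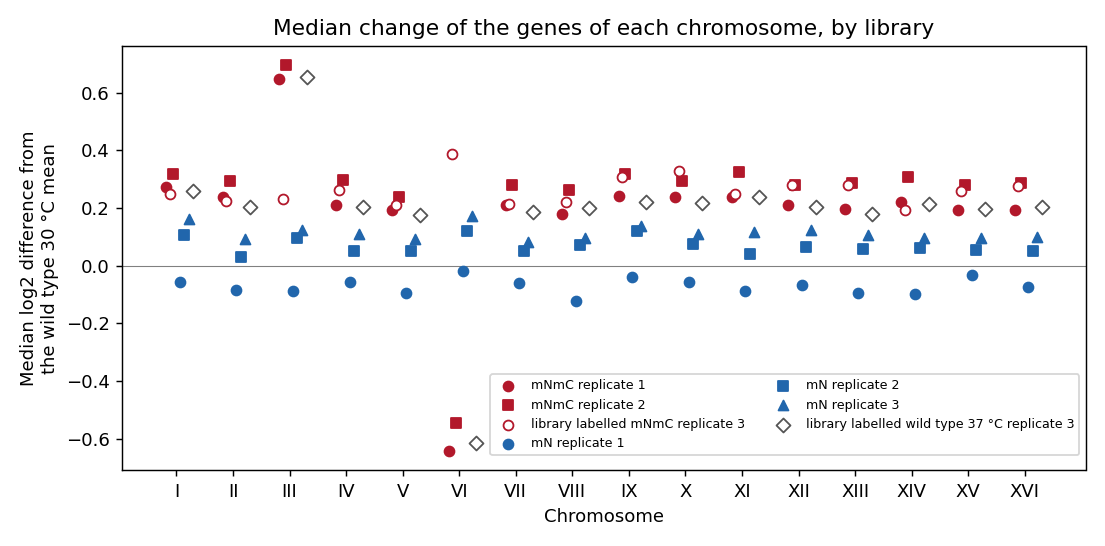
Median log2 difference from the mean of wild type at 30 °C (vertical axis) over the tested genes of each chromosome (horizontal axis), with 1 point per library. mNmC replicates 1 and 2 and the library labelled wild type 37 °C replicate 3 lie between -0.64 and -0.55 on chromosome VI and between 0.65 and 0.69 on chromosome III, apart from the mN libraries and from the library labelled mNmC replicate 3.

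The number of genes that changed depended on the libraries used. As labelled, 1284 genes were higher in mNmC (20.1% of those tested) and 171 lower (2.67%). With 13 libraries, 2536 were higher (39.6%) and 678 lower (10.6%), 50.2% in all. All 3 mNmC values lay above all mN values in 31.8% of tested genes and below them in 5.86%, and those of replicates 1 and 2 alone lay above in 51.8% and below in 14.5%. Both fits called 1262 genes higher and 171 lower. The median of all genes lay at 0.25 as labelled and at 0.24 with 13 libraries, above 0. After each library was scaled to the same 75th percentile (upper quartile) it was 0.03, and the calls with 13 libraries were then 1430 higher (22.3%) and 1335 lower (20.9%). The same scaling gave 558 higher (8.72%) and 452 lower (7.06%) as labelled. No gene called both with and without this scaling changed direction with 13 libraries, and all 678 lower genes were also lower with it. As the scaling moved fold changes down, from a median of 0.24 to 0.03, that is no check of the lower genes. The counts of each list below are to be read against the shares of all genes given here. Changes were mostly small, since 391 of the genes called higher with 13 libraries rose by more than 1 and 23 by more than 2, while 90 of those called lower fell by more than 1 and 18 by more than 2. Of these 90 genes, 30 lie on chromosome VI (33.3%), which holds 2.08% of the tested genes. Outside chromosomes III and VI, 2407 genes were higher (39.4%) and 590 lower (9.65%).

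The fold change also moved with gene length. Genes under 500 bases had a median of 0.55 with 13 libraries, those from 500 to under 1000 bases 0.37, those from 1000 to under 2000 bases 0.18 and those of 2000 bases or more 0.06. In mN replicate 1 the shortest genes lay 0.40 below the mean of mN replicates 2 and 3, and the longest 0.03 below it. With that library left out as well (12 libraries) the medians were 0.43, 0.25, 0.13 and 0.04. Leaving out mN replicate 1 alone, with the rest as labelled, left 758 genes called higher, against 1284 as labelled. With 12 libraries 2518 were called higher, against 2536 with 13. The share of genes called higher with 13 libraries was 55.1% under 500 bases, 51.7% from 500 to under 1000, 38.9% from 1000 to under 2000 and 24% from 2000 on. With 12 libraries these shares were 55.7%, 51.0%, 39.2% and 23.4%. Lists that are read against these shares below are given with 12 libraries too. The part of gene length in them was not tested further.

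HSF1 mRNA itself was lower in mNmC than in mN with 13 libraries. HSF1 (YGL073W) read 52.1, 59.4 and 149.9 FPKM in mNmC, against 86.1, 109.7 and 106 FPKM in mN. The 2 remaining mNmC values lie below all 3 mN values, and the last lies above them. The change was -0.36 ± 0.36 as labelled (adjusted p = 0.484) and -0.84 ± 0.10 with 13 libraries (adjusted p = 0.000121). Between mC and wild type the level went the other way, at 246 ± 15.5 FPKM in mC (n = 3) and 155 ± 2.97 FPKM in wild type (n = 3), a change of 0.66 ± 0.09 (adjusted p = 0.00195). The altered sites lie in the coding sequence, so the mRNA level is no check of the alleles.

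The Hsf1 target chaperones rose almost as a whole on top of mN. Of 21 genes in the list, 18 rose and none fell as labelled, and with 13 libraries 20 rose and none fell (19 rose and none fell with upper-quartile scaling). Their median change was 1.28, against 0.24 for all genes, and each of the 21 lay above that median of all genes. The exception was MDJ1 (YFL016C), a J-protein of mitochondria, at 0.25 ± 0.19 (adjusted p = 0.291), and it is the 1 member on chromosome VI. The members are described below from Hsp70 to Hsp90, disaggregation and regulators.

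SSA4 (YER103W), the heat-inducible cytosolic Hsp70, read 1105, 1063 and 2007 FPKM in mNmC, against 228, 254 and 221 FPKM in mN. Every mNmC library lay far above every mN library, and the change was 2.50 ± 0.26 as labelled (adjusted p = 0.000107) and 2.21 ± 0.09 with 13 libraries (adjusted p = 6.76e-08). SSA1 (YAL005C), a constitutive Hsp70 gene that Hsf1 also drives, read 2787, 2492 and 2108 FPKM in mNmC, against 1555, 1277 and 1130.5 FPKM in mN. Its groups did not overlap and it rose by 1.01 ± 0.11 with 13 libraries (adjusted p = 5.98e-05). Its near copy SSA2 rose by 0.74 ± 0.11 (adjusted p = 0.000294), and the labels do not say how reads that such copies share were assigned. Of 9 cytosolic Hsp70 and Hsp110 genes, 6 rose and 1 fell with 13 libraries (5 and 0 as labelled, 4 and 2 with upper-quartile scaling). SSE2 (YBR169C), an Hsp110, was among those that rose at 0.51 ± 0.08 (adjusted p = 0.000496).

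J-proteins and exchange factors set the ATP cycle of Hsp70. SIS1 (YNL007C), a nuclear and cytosolic J-protein, read 1315, 1324 and 1134 FPKM in mNmC, against 366, 564 and 503 FPKM in mN, with no overlap and a change of 1.41 ± 0.15 as labelled (adjusted p = 0.000115) and 1.49 ± 0.14 with 13 libraries (adjusted p = 2.08e-05). FES1 (YBR101C), a nucleotide exchange factor, read 505, 519 and 226 FPKM in mNmC, against 181, 184 and 190.1 FPKM in mN. Here the library labelled replicate 3 lay much nearer to mN than the other two, and the change was 1.07 ± 0.31 as labelled (adjusted p = 0.0292) and 1.46 ± 0.07 with 13 libraries (adjusted p = 1.13e-07). YDJ1 (YNL064C), the main cytosolic J-protein, read 1238, 1282 and 584 FPKM in mNmC, against 489, 533 and 534 FPKM in mN. It missed the threshold as labelled (adjusted p = 0.056) and rose by 1.28 ± 0.07 with 13 libraries (adjusted p = 4.62e-07). APJ1 (YNL077W), another J-protein, did likewise, at 0.88 ± 0.32 as labelled (adjusted p = 0.0671) and 1.26 ± 0.11 with 13 libraries (adjusted p = 1.22e-05). Of the 14 genes of this class, 10 rose and 1 fell with 13 libraries (4 and 0 as labelled, 5 and 2 with upper-quartile scaling).

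Hsp90 and its partners help client proteins such as kinases mature. HSP82 (YPL240C), the inducible Hsp90, read 878, 887 and 796 FPKM in mNmC, against 346, 257 and 238 FPKM in mN, a change of 1.62 ± 0.14 as labelled (adjusted p = 1.9e-05) and 1.67 ± 0.13 with 13 libraries (adjusted p = 4.42e-06). STI1 (YOR027W), which bridges Hsp70 and Hsp90, was the most even of these genes, at 559.8, 566 and 564 FPKM in mNmC, against 189, 204 and 194 FPKM in mN. It rose by 1.52 ± 0.09 as labelled (adjusted p = 9.37e-07). CPR6 (YLR216C), a peptidyl-prolyl isomerase, rose by 1.33 ± 0.10 with 13 libraries (adjusted p = 4.59e-06), and HSC82, the constitutive Hsp90, by 1.04 ± 0.15 (adjusted p = 0.000283). Of the 14 genes, 9 rose and none fell with 13 libraries (6 and 0 as labelled, 8 and 1 with upper-quartile scaling). TAH1 (YCR060W, chromosome III), a cofactor of Hsp90, read 233, 257 and 82.5 FPKM in mNmC, against 33.1, 104 and 106 FPKM in mN. Its mN replicate 1 lay far below the other two, and it rose by 1.76 ± 0.38 with 13 libraries (adjusted p = 0.00347) and by 1.21 without mN replicate 1 as well (adjusted p = 4.56e-06).

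Genes of disaggregation and of sorting misfolded protein made up the list with the highest median, 1.40 over 11 genes. Of these, 9 rose and 1 fell with 13 libraries (9 and 0 as labelled, 9 and 1 with upper-quartile scaling, 9 and 1 with 12 libraries, at a median length of 714 bases). BTN2 (YGR142W), which gathers misfolded protein into deposits, read 589.9, 609.95 and 205 FPKM in mNmC, against 105, 92.3 and 99.1 FPKM in mN. All mNmC libraries exceeded all mN libraries, and the change was 2.08 ± 0.41 as labelled (adjusted p = 0.00495) and 2.59 ± 0.11 with 13 libraries (adjusted p = 6.76e-08). Its relative CUR1 (YPR158W) rose by 1.76 ± 0.15 with 13 libraries (adjusted p = 9.51e-06). HSP104 (YLL026W), the cytosolic disaggregase, read 616, 603 and 1083 FPKM in mNmC, against 312, 286 and 269.9 FPKM in mN and rose by 1.07 ± 0.08 (adjusted p = 2.46e-06). HSP42 (YDR171W), a small heat shock protein, rose by 1.395 ± 0.13 (adjusted p = 1.91e-05). HSP12 (YFL014W, chromosome VI), a membrane-associated stress protein, read 509, 740.1 and 15100 FPKM in mNmC, against 39.9, 86.7 and 144 FPKM in mN. The mNmC library labelled replicate 3 lies over an order of magnitude above the others, and the change was 4.47 ± 1.38 as labelled (adjusted p = 0.0358) and 2.94 ± 0.38 with 13 libraries (adjusted p = 0.000162).

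Outside these classes, MBF1 (YOR298C-A), a transcriptional coactivator on the Hsf1 list, read 2824, 2904 and 2100 FPKM in mNmC, against 788, 1054 and 1182 FPKM in mN and rose by 1.53 ± 0.15 with 13 libraries (adjusted p = 2.22e-05). Mitochondrial chaperones moved less, as 5 of 11 rose and none fell (3 and 0 as labelled, 4 and 1 with upper-quartile scaling). Their share higher with 13 libraries, 45.5%, was near the 39.6% of all tested genes. HSP10 (YOR020C), the cochaperonin, rose by 0.94 ± 0.15 (adjusted p = 0.000467), HSP78 (YDR258C), the mitochondrial disaggregase, by 0.92 ± 0.13 (adjusted p = 0.000321) and HSP60 by 0.41 ± 0.07 (adjusted p = 0.000658), though HSP60 missed the threshold as labelled (adjusted p = 0.0578). Of 14 genes of the cytosolic chaperonin CCT and its partner prefoldin, 7 rose and none fell with 13 libraries (2 and 0 as labelled, 5 and 2 with upper-quartile scaling), at a median of 0.20, near that of all genes. The 4 that changed most, YKE2, GIM5, PFD1 and GIM4, all encode prefoldin, at 1.29 ± 0.35, 0.86 ± 0.17, 0.72 ± 0.22 and 0.70 ± 0.13. With 12 libraries, 9 genes of the list rose and none fell. The part of gene length or of mN replicate 1 in these 4 values was not tested.

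**Figure D2:**
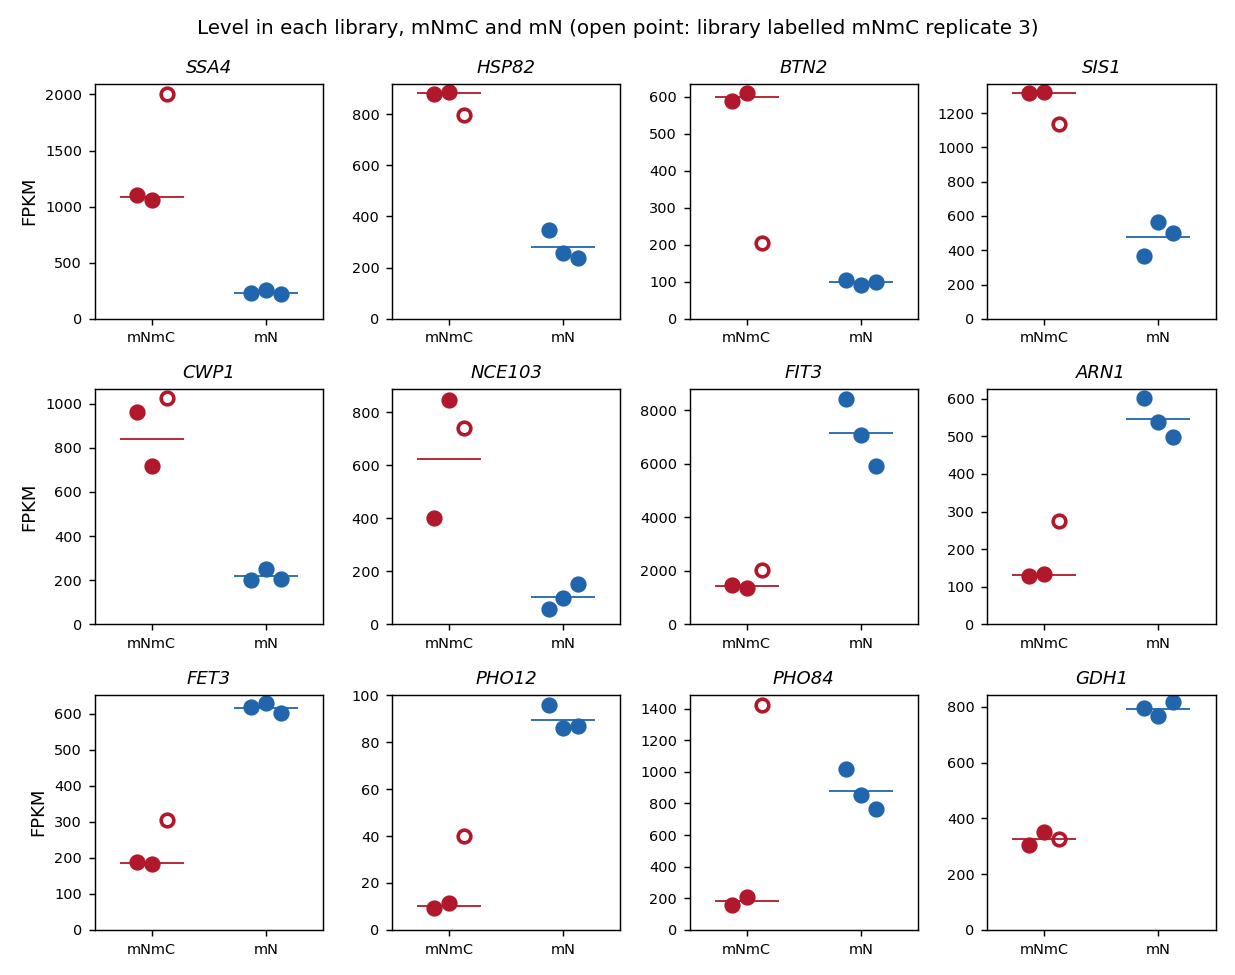
Level in each library (vertical axes, FPKM from 0, scaled per gene) of 12 genes in mNmC and in mN, with 1 point per library and a line at the mean of mNmC replicates 1 and 2 and of the 3 mN libraries. The open point is the library labelled mNmC replicate 3, which for BTN2 (205 FPKM) lies between the groups and for PHO84 (1426 FPKM) above mN.

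To show what stands before the genes of this group, stretches of their promoters were read from the R64 genome of RefSeq by gene identifier. No source used here gives the build behind the deposited table, so the positions are those of R64 alone. The motif searched was the heat shock element of 3 units, that is GAA, TTC and GAA, or TTC, GAA and TTC, each a pair of bases apart. These forms cover both strands, and the window searched was the 300 bases that end 100 bases before the start codon. Overlapping matches run together, and capitals mark the matches. BTN2 is shown because it had the highest change of the named genes with the element, and STI1, SIS1 and FES1 were picked after their values were seen.
BTN2: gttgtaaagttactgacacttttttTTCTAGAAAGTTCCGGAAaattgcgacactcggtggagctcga
STI1: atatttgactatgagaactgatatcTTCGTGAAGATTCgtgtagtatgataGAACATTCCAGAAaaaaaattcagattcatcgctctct
SIS1: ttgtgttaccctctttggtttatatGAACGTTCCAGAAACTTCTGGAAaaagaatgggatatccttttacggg
FES1: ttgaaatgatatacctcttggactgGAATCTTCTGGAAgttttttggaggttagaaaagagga
Their positions are chrVII:772085-772152, plus strand for BTN2, chrXV:380786-380874, plus strand for STI1, chrXIV:619862-619934, minus strand for SIS1 and chrII:444827-444889, minus strand for FES1. The element stood in 12 of the 21 Hsf1 target chaperones (57.1%), against 62 of the 5804 promoters of tested genes (1.07%). The list is one of Hsf1 targets, so its share describes the list and is no result of the comparison. Of the promoters of genes that rose by more than 1 with 13 libraries, 13 of 326 held it (3.99%), and of those that fell by more than 1, 1 of 70 (1.43%). The 13 include members of the list, such as BTN2, STI1, SIS1 and FES1. SSA4 and HSP82 had no match to these exact letters in this window.

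Protein degradation genes moved little. RPN4 (YDL020C), the activator of proteasome genes, read 118, 129.6 and 65.4 FPKM in mNmC, against 52.5, 51.2 and 59.8 FPKM in mN and rose by 1.17 ± 0.13 with 13 libraries (adjusted p = 5.02e-05). Of 33 proteasome genes, 18 rose and 2 fell with 13 libraries (6 and 0 as labelled), but with upper-quartile scaling 4 rose and 5 fell (20 and 3 with 12 libraries, at a median length of 867 bases), and the median of 0.29 lay close to that of all genes. The share higher with 13 libraries was 54.5%, where 51.7% of all genes from 500 to under 1000 bases were. With 12 libraries these shares were 60.6% and 51.0%. The 2 that fell, RPN12 (-0.80) and RPN11 (-0.69), lie on chromosome VI. Of the 30 members outside chromosomes III and VI, 18 rose and none fell. Of 14 ubiquitin and quality control genes, 5 rose and 1 fell (5 and 0 as labelled, 4 and 4 with upper-quartile scaling). Their share higher with 13 libraries, 35.7%, was near the 39.6% of all tested genes. UBI4 (YLL039C), the stress polyubiquitin gene, rose by 0.80 ± 0.09 (adjusted p = 7.39e-05), while the deubiquitinase gene UBP6, on chromosome VI, fell by 0.95.

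General stress genes driven by Msn2 and Msn4, the other factors of the heat response, did not rise as a group. Of 30 such genes, 8 rose and 7 fell with 13 libraries at a median of 0.01, and 3 rose and 14 fell with upper-quartile scaling. As labelled, 3 rose and none fell, at a median of 0.83, so the median falls when the library labelled replicate 3 is left out. The genes that rose included HSP12 and SIP18 (1.70), and those that fell HXK1 (-1.24, chromosome VI) and GLC3 (-0.85). Of 11 tested heat genes shared by Hsf1 and Msn2/4, 9 rose and 1 fell (8 and 0 as labelled, 8 and 1 with upper-quartile scaling), at a median of 0.92. Of 17 trehalose and glycogen genes, which these factors also drive, 3 rose and 10 fell with 13 libraries, against 1 and 0 as labelled (1 rose and 11 fell with upper-quartile scaling). GSY1 (YFR015C, chromosome VI), glycogen synthase, read 8.85, 7.35 and 61.4 FPKM in mNmC, against 38.9, 35.4 and 33.99 FPKM in mN and changed by -2.03 ± 0.09 with 13 libraries (adjusted p = 1.13e-07). PGM2 (phosphoglucomutase) and GPH1 (glycogen phosphorylase) turned direction, at 0.65 and 0.49 as labelled and -0.74 and -0.68 with 13 libraries. Of 14 heat and stress regulators, 4 rose and 3 fell (4 and 0 as labelled, 2 and 5 with upper-quartile scaling). Of those that fell, HAC1 and RIM15 lie on chromosome VI. With 13 libraries 39.6% of all tested genes were higher and 10.6% lower. The shares were 26.7% and 23.3% of Msn2/4 genes, 17.6% and 58.8% of trehalose and glycogen genes, and 28.6% and 21.4% of regulators.

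The unfolded protein response, which adjusts folding in the endoplasmic reticulum, was lower at some genes with 13 libraries. Of 16 genes, 1 rose and 8 fell, at a median of -0.32, against 1 and 0 as labelled (1 rose and 10 fell with upper-quartile scaling). HAC1 (YFL031W), its transcription factor, read 192, 167 and 1008 FPKM in mNmC, against 561, 429 and 402 FPKM in mN. The library labelled replicate 3 stands far above the other mNmC values, and HAC1 fell by 1.35 with 13 libraries (adjusted p = 1.67e-05). HAC1, ERJ5 and ULI1, all called lower, lie on chromosome VI, and of the 12 members outside chromosomes III and VI, 1 rose and 5 fell at a median of -0.16, EUG1 (-0.90), a protein disulfide isomerase, falling most.

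**Figure D3:**
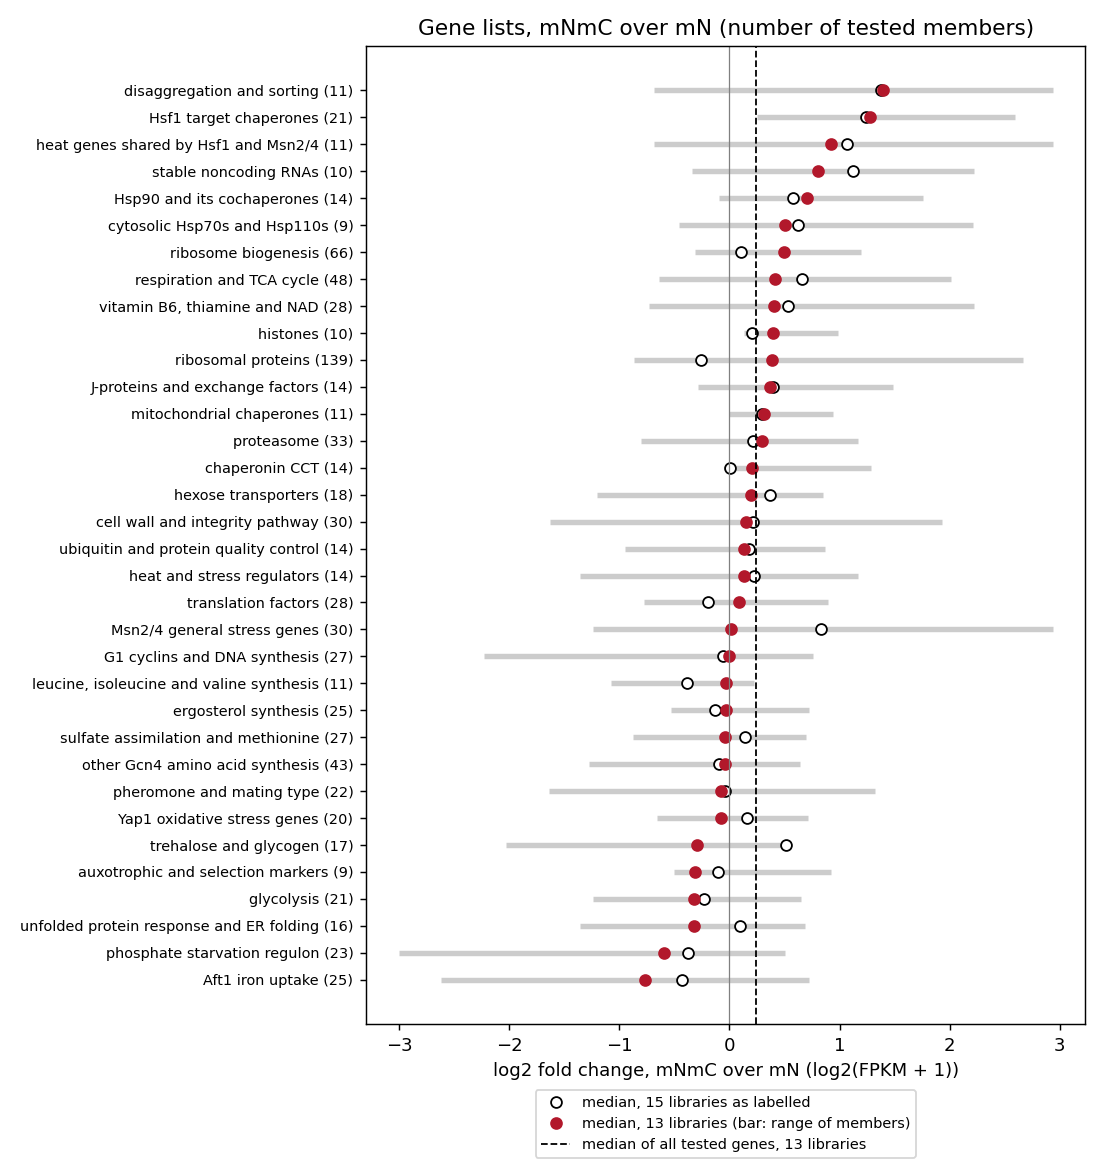
Median log2 fold change of each gene list, mNmC over mN (horizontal axis), with filled points for 13 libraries, open points for 15 libraries as labelled and bars for the range of the members with 13 libraries. The dashed line is the median of all tested genes, 0.24. Hsf1 target chaperones lie at 1.28, and iron uptake (-0.77) and phosphate (-0.59) lie lowest.

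Cell wall genes included both rises and falls. CWP1 (YKL096W), a cell wall mannoprotein, read 960.2, 719 and 1024 FPKM in mNmC, against 199, 249 and 206 FPKM in mN. The groups lay far apart in every library, and CWP1 rose by 2.03 ± 0.17 as labelled (adjusted p = 1.71e-05) and 1.93 ± 0.12 with 13 libraries (adjusted p = 9.93e-07). SLT2 (YHR030C), the MAP kinase of the cell integrity pathway, read 281, 296 and 315 FPKM in mNmC, against 106, 123.2 and 134 FPKM in mN and rose by 1.29 ± 0.10 as labelled (adjusted p = 1.27e-05). PRM5 (YIL117C), a gene that this pathway induces, rose by 1.11 ± 0.11 as labelled (adjusted p = 5.79e-05). TIR1 (YER011W), a mannoprotein of cold and anaerobic growth, read 202, 138 and 190.2 FPKM in mNmC, against 831, 446 and 375 FPKM in mN and fell by 1.62 with 13 libraries (adjusted p = 0.000801). Of 30 genes in the list, 12 rose and 6 fell with 13 libraries (9 and 3 as labelled), which became 9 and 9 with upper-quartile scaling. With 13 libraries that is 40.0% higher and 20.0% lower, where 39.6% and 10.6% of all tested genes were.

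Among the lowest of all fold changes were those of a few more transport and wall genes. DAN1 (YJR150C), an anaerobic cell wall mannoprotein, read 19.5, 19.6 and 64.9 FPKM in mNmC, against 141, 185 and 142 FPKM in mN and fell, with a change of -2.36 ± 0.44 as labelled (adjusted p = 0.00363) and -2.92 ± 0.13 with 13 libraries (adjusted p = 1.03e-07). With 13 libraries TIR4 stood at -2.01 ± 0.20 (adjusted p = 2.22e-05) and PAU5, on chromosome VI, at -1.84 ± 0.16 (adjusted p = 8.51e-06). OPT2 (YPR194C), a transporter of the oligopeptide family, read 16.3, 15.7 and 59.9 FPKM in mNmC, against 86.8, 94.01 and 98.98 FPKM in mN, a change of -2.47 ± 0.10 (adjusted p = 6.76e-08). Apart from TIR1, these genes were taken by the size of their change and form no list.

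The remaining genes with the highest changes had few features in common. YEL073C, of unknown function, read 37.5, 40.3 and 73.5 FPKM in mNmC, against 3.63, 4.37 and 3.88 FPKM in mN and had the highest fold change of those called in both fits, at 3.01 ± 0.16 with 13 libraries (adjusted p = 3.02e-07). NCE103 (YNL036W), the carbonic anhydrase, read 399.98, 848 and 739 FPKM in mNmC, against 59.2, 97.6 and 152 FPKM in mN. Its lowest mNmC value exceeds its highest mN value, and it rose by 2.70 ± 0.36 as labelled (adjusted p = 0.000429). CPP3 (YDR034W-B, 2.38), SPG4 (YMR107W, 2.42), YOR011W-A (2.35), IRC18 (YJL037W, 2.29) and the small nucleolar RNA snR189 (2.27) rose with 13 libraries and as labelled. So did CDA1 (YLR307W, 2.26), a chitin deacetylase of the spore wall. RNAs without a poly(A) tail in mature form were also higher. SCR1, which encodes the signal recognition particle's RNA, read 252, 261 and 1069.5 FPKM in mNmC, against 58.4, 44.8 and 60.5 FPKM in mN, a change of 2.22 ± 0.12 with 13 libraries (adjusted p = 2.99e-07), and RPR1, the RNA of RNase P, rose by 2.11 ± 0.13 (adjusted p = 9.55e-07). Of 10 stable noncoding RNAs, 6 rose and none fell (5 and 0 as labelled, 6 and 0 with upper-quartile scaling). As the libraries were made by oligo(dT) selection, such RNAs are caught in part only, and whether the selection differed between libraries was not tested.

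Vitamin and NAD genes rose in several branches. SNZ1 (YMR096W), of vitamin B6 synthesis, read 195, 310.5 and 71.5 FPKM in mNmC, against 43.6, 52.8 and 61.5 FPKM in mN and rose by 2.22 ± 0.18 with 13 libraries (adjusted p = 4.87e-06). BNA2 (YJR078W), the first enzyme of NAD synthesis from tryptophan, read 32.6, 39.8 and 46.2 FPKM in mNmC, against 7.16, 10.9 and 12.03 FPKM in mN and rose by 1.89 ± 0.18 as labelled (adjusted p = 3.93e-05). BNA4 (1.56) and BNA1 (1.38) of the same pathway rose with 13 libraries and as labelled. Of 28 genes, 17 rose and 2 fell (16 and 0 as labelled, 13 and 7 with upper-quartile scaling), at a median of 0.40. With 13 libraries that is 60.7% higher and 7.14% lower, where 39.6% and 10.6% of all tested genes were. With the scaling, 22.3% of all genes were higher and 20.9% lower.

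Iron uptake genes formed the list with the lowest median. Aft1 is the yeast activator of the iron regulon, which takes up iron through siderophore transporters, cell wall mannoproteins and a ferroxidase with its permease. Of 25 genes, 20 fell and 2 rose with 13 libraries (10 and 2 as labelled, 22 fell and 1 rose with upper-quartile scaling), at a median of -0.77. Of these, 1 gene, FET5, lies on chromosome VI. FIT3 (YOR383C), a mannoprotein that retains siderophores in the cell wall, read 1477, 1353 and 2037 FPKM in mNmC, against 8432, 7073 and 5919 FPKM in mN. Its groups did not overlap in any library, and the change was -2.15 ± 0.20 as labelled (adjusted p = 3.58e-05) and -2.32 ± 0.14 with 13 libraries (adjusted p = 7.17e-07).

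Its companions act with it. FIT1 (YDR534C) read 19.8, 20.03 and 33.4 FPKM in mNmC, against 220.4, 105 and 90.1 FPKM in mN. FIT2 (YOR382W) read 754, 704 and 2374 FPKM in mNmC, against 2676, 3879.9 and 3208 FPKM in mN. The change with 13 libraries was -2.62 ± 0.28 for FIT1 (adjusted p = 4.64e-05) and -2.14 ± 0.13 for FIT2 (adjusted p = 8.3e-07), and both also fell as labelled. Their mNmC values stayed below every mN value. ARN1 (YHL040C), a siderophore transporter, read 129.7, 135 and 275 FPKM in mNmC, against 602, 539 and 499 FPKM in mN and fell by 2.04 with 13 libraries (adjusted p = 2.51e-07). ARN2 (YHL047C), a related transporter, read 114, 114 and 115 FPKM in mNmC, against 388, 359 and 321 FPKM in mN. Here all 3 mNmC libraries were alike, and ARN2 fell by 1.63 as labelled (adjusted p = 3.86e-06). FET3 (YMR058W), the multicopper ferroxidase, read 187, 183 and 304 FPKM in mNmC, against 618, 631 and 602 FPKM in mN and fell by 1.73 with 13 libraries (adjusted p = 6.76e-08), and its permease partner FTR1 (YER145C) fell by 0.84 (adjusted p = 0.000119). The members that rose were HMX1 (YLR205C, 0.72 ± 0.14, adjusted p = 0.002), heme oxygenase, and FRE4 (0.32 ± 0.09, adjusted p = 0.0114), a ferric reductase. AFT1 (YGL071W) itself stood at -0.09 ± 0.07 (adjusted p = 0.309).

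Promoter stretches of iron genes with the Aft1 core TGCACCC (searched as TGCACCC or GGGTGCA, in the same window) are given next, with the core in capitals. They, and the motif, were chosen after the values were seen, and of the 2 matches of FIT3 1 is shown.
FIT3: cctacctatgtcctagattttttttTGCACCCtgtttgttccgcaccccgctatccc
ARN1: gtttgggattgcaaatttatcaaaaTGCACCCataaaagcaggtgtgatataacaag
FET3: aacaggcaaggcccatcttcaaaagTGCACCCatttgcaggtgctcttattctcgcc
Their R64 positions are chrXV:1061309-1061365, minus strand for FIT3, chrVIII:21200-21256, minus strand for ARN1 and chrXIII:388546-388602, plus strand for FET3. The core stood in 14 of the 25 promoters of the list (56%), against 87 of 5804 (1.5%). The list is one of Aft1 genes, so its share describes the list and is no result of the comparison. The core stood in 10 of 70 promoters of genes that fell by more than 1 with 13 libraries (14.3%), and in 5 of 326 of those that rose by more than 1 (1.53%). The 10 include FIT1, FIT2, FIT3, ARN1 and FET3 of the list itself.

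Many phosphate genes fell with 13 libraries, fewer as labelled. Pho4 is the activator that induces phosphate transporters and acid phosphatases when phosphate runs low. Of 23 genes in the list, 15 fell and 4 rose with 13 libraries, against 6 and 1 as labelled (17 fell and none rose with upper-quartile scaling), at a median of -0.59. PHO84 (YML123C), the high-affinity phosphate transporter, read 155, 211 and 1426 FPKM in mNmC, against 1018, 856 and 763 FPKM in mN. Replicates 1 and 2 lie far below mN and the library labelled replicate 3 above it, so the change was -1.27 ± 0.75 as labelled (adjusted p = 0.235) and -2.27 ± 0.14 with 13 libraries (adjusted p = 9.55e-07). PHO89 (YBR296C), the sodium phosphate cotransporter, read 19.3, 40.4 and 200.4 FPKM in mNmC, against 163, 143 and 136 FPKM in mN and fell by 2.35 with 13 libraries (adjusted p = 4.68e-05). SPL2 (YHR136C), a regulator of low-affinity transport, fell by 2.11 (adjusted p = 0.000107).

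PHO12 (YHR215W), a secreted acid phosphatase, read 9.35, 11.4 and 39.96 FPKM in mNmC, against 95.96, 86.05 and 86.96 FPKM in mN, without overlap, a change of -2.38 ± 0.43 as labelled (adjusted p = 0.0029) and -3.001 ± 0.08 with 13 libraries (adjusted p = 4.43e-09). Its near-identical copy PHO11 (YAR071W) fell by 1.89 with 13 libraries (adjusted p = 4.08e-06), and reads of these copies may be shared. PHO5 (YBR093C), the main acid phosphatase, fell by 0.35 (adjusted p = 0.00156). The polyphosphate synthase genes VTC3 (YPL019C, 35.1, 38.1 and 109 FPKM in mNmC, against 151, 109.9 and 114 FPKM in mN), VTC4 and VTC2 (chromosome VI) stood at -1.73, -1.26 and -1.43 with 13 libraries, all called lower. PHO4 (YFR034C) lies on chromosome VI and stood at -0.65 ± 0.24 with 13 libraries (adjusted p = 0.0409). Of the 20 members outside chromosomes III and VI, 13 fell and 3 rose, at a median of -0.57.

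The Pho4 site was searched on both strands, as the palindrome CACGTG and as its variant CACGTT. Examples, chosen with the motif after the values were seen, have it in capitals.
PHO89: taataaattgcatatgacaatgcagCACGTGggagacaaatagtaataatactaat
PHO12: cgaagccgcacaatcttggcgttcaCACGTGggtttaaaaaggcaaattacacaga
VTC3: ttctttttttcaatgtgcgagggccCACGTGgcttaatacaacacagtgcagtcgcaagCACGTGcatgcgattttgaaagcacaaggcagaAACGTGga
Their R64 positions are chrII:798815-798870, minus strand for PHO89, chrVIII:551791-551846, plus strand for PHO12 and chrXVI:517289-517388, minus strand for VTC3. The site stood in 17 of 23 promoters of the list (73.9%), against 805 of 5804 (13.9%). The list is one of phosphate genes that Pho4 induces, so its share is no result of the comparison either. The site stood in 17 of the 70 promoters of genes that fell by more than 1 (24.3%), and in 43 of 326 of those that rose by more than 1 (13.2%). Those that fell include members of the list, such as PHO12, PHO84, PHO89 and VTC3.

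Carbon and nitrogen metabolism was lower at several enzymes. PDC1 (YLR044C), the main pyruvate decarboxylase, read 5557, 5032 and 4983 FPKM in mNmC, against 11804, 10876 and 10375 FPKM in mN. All mNmC libraries lay below all mN libraries, and PDC1 fell by 1.09 as labelled (adjusted p = 0.000598). Of 21 glycolysis and fermentation genes, 11 fell and 2 rose with 13 libraries (5 and 1 as labelled, 14 fell and 1 rose with upper-quartile scaling), at a median of -0.32. Of 18 tested hexose transporters, 6 rose and 2 fell (4 and 1 as labelled, 3 and 3 with upper-quartile scaling), near the shares of all genes (39.6% and 10.6%), with HXT4 (YHR092C) at -1.20 ± 0.22 (adjusted p = 0.00126) and HXT7, which has a near-identical copy, rising by 0.85 ± 0.17 (adjusted p = 0.0022). GDH1 (YOR375C), glutamate dehydrogenase, read 305, 351 and 326 FPKM in mNmC, against 797, 767 and 819 FPKM in mN and fell by 1.28 as labelled (adjusted p = 7.96e-06). Of 43 other Gcn4 genes of amino acid synthesis, 11 fell and 7 rose (4 and 3 as labelled, 23 fell and 3 rose with upper-quartile scaling). Of 11 genes of leucine, isoleucine and valine synthesis, 4 fell and none rose (2 and 0 as labelled, 5 fell with upper-quartile scaling), led by LEU1 (YGL009C, -1.08). Sulfur genes gave 10 higher and 8 lower of 27 (5 and 3 as labelled, 4 and 11 with upper-quartile scaling), MET10 (-0.88, chromosome VI) falling most. With 13 libraries the share of sulfur genes higher, 37.0%, was near the 39.6% of all genes.

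Lipid and redox lists stayed near or below the median of all genes. Of 25 ergosterol genes, 8 fell and 1 rose (4 and 0 as labelled, 14 fell and 1 rose with upper-quartile scaling), with ERG25 (-0.53) lowest and IDI1 (0.72) the 1 that rose. Of 20 Yap1 genes of oxidative stress, 5 fell and 2 rose (0 and 2 as labelled, 11 fell and 2 rose with upper-quartile scaling, 8 fell and 2 rose with 12 libraries, at a median length of 873 bases). TSA1 (YML028W), the main peroxiredoxin, fell by 0.66 (adjusted p = 0.00011).

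Genes of the ribosome, of histones and of respiration are read against genes of their length. Of 66 ribosome biogenesis genes, 53 rose and 1 fell (1 and 0 as labelled, 33 and 1 with upper-quartile scaling, 55 and 1 with 12 libraries), at a median of 0.49, among them NOP15 (1.19) and MAK16 (1.10). That is 80.3% higher, where 38.9% of all genes from 1000 to under 2000 bases were, and their median length was 1615.5 bases. Of 139 ribosomal protein genes, with a median length of 771 bases, 72 rose and 10 fell (1 and 2 as labelled, 31 and 17 with upper-quartile scaling, 69 and 14 with 12 libraries). The share higher, 51.8%, was close to the 51.7% of all genes from 500 to under 1000 bases. Their median was 0.38 with 13 libraries and -0.26 as labelled. RPL35A (YDL191W), of the large subunit, read 2549, 2531 and 142 FPKM in mNmC, against 506, 329 and 383 FPKM in mN. It is one of a pair of genes for the same protein, and it rose by 2.67 ± 0.56 with 13 libraries (adjusted p = 0.00288). RPL28 rose by 1.32 ± 0.22 (adjusted p = 0.000792). In wild type at 30 °C the 3 libraries of RPL35A were uneven, at 1494 ± 939 FPKM (SD, n = 3).

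Of 10 histone genes, with a median length of 399 bases, 7 rose and none fell (1 and 0 as labelled, 3 and 0 with upper-quartile scaling, 6 and 0 with 12 libraries). With 10 genes, their 70% stands beside 55.1% of all genes under 500 bases. HHF1 (YBR009C), for histone H4, read 1619, 1578 and 757 FPKM in mNmC, against 649.6, 833 and 969.9 FPKM in mN and rose by 0.99 ± 0.16 with 13 libraries (adjusted p = 0.000557). Of 48 respiration and TCA cycle genes, with a median length of 571.5 bases, 27 rose and 3 fell (15 and 0 as labelled, 17 and 8 with upper-quartile scaling, 24 and 3 with 12 libraries). The share higher, 56.2%, was close to those of all genes under 500 bases and of the next length class, 55.1% and 51.7%. CYC7 (YEL039C), the minor cytochrome c, read 37.3, 43.04 and 271 FPKM in mNmC, against 5.53, 11.6 and 11.9 FPKM in mN and rose by 2.01 ± 0.29 with 13 libraries (adjusted p = 0.000307). CYC1 (YJR048W), the major form, read 178, 189 and 64.4 FPKM in mNmC, against 41.01, 64.3 and 79.1 FPKM in mN and rose by 1.61 ± 0.23 (adjusted p = 0.000316). Their last mNmC values went opposite ways, above the other mNmC libraries for CYC7 and below them for CYC1. Of 28 translation factors, 6 rose and 6 fell (1 and 2 as labelled, 2 and 8 with upper-quartile scaling), with TEF4 (-0.77), an elongation factor subunit, lowest. With 13 libraries that is 21.4% each way, where 39.6% of all tested genes were higher and 10.6% lower.

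Division and mating genes moved one by one. HUG1 (YML058W-A), an inhibitor of ribonucleotide reductase that DNA damage induces, read 64.4, 63.4 and 165 FPKM in mNmC, against 160.2, 445 and 386 FPKM in mN and fell by 2.22 with 13 libraries (adjusted p = 0.000319). RNR3 (YIL066C), the damage-inducible reductase subunit, fell by 1.32 (adjusted p = 1.17e-06). Of 27 genes of G1 cyclins and DNA synthesis, 5 rose and 5 fell (0 and 1 as labelled, 2 and 11 with upper-quartile scaling). SAG1 (YJR004C), the alpha-agglutinin, read 336, 287 and 74.2 FPKM in mNmC, against 651, 873 and 967 FPKM in mN with a change of -1.396 ± 0.17 (adjusted p = 0.000117), and AGA1, an agglutinin anchor, fell by 1.63 (adjusted p = 0.000802). MFA1, an a-factor gene, rose by 1.32 ± 0.22 (adjusted p = 0.000807). Of 22 pheromone and mating type genes, 6 fell and 3 rose (2 and 3 as labelled, 10 fell and 1 rose with upper-quartile scaling). With 13 libraries 13.6% of these were higher and 27.3% lower, and 18.5% of the G1 and DNA synthesis genes went each way. Of all tested genes, 39.6% were higher and 10.6% lower. Of 9 tested auxotrophic and selection markers, which can differ between strains by construction, 4 fell and 1, TRP1 (0.92), rose (2 and 1 as labelled, 8 fell and 1 rose with upper-quartile scaling).

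Some genes were called with 13 libraries and not as labelled. The highest of these, beside RPL35A, TAH1 and CYC1, were GFD2 (1.70, chromosome III), YJL188C (1.68), BUR6 (1.61), YPL080C (1.52) and YMR244W (1.50). The lowest, beside PHO89, PHO84, SPL2, GSY1, TIR4 and PAU5, were DUG1 (YFR044C, -1.75, chromosome VI), a dipeptidase of glutathione breakdown, and CIP1 (YPL014W, -1.68), an inhibitor of cyclin-dependent kinase. In BUR6 the mN libraries read 16.3, 67.0 and 66.1 FPKM, so mN replicate 1 widens the difference, and without it BUR6 stood at 0.95 (adjusted p = 9.82e-05). YMR244W read 17.6, 19.5 and 290.1 FPKM in mNmC, against 5.39, 6.77 and 5.57 FPKM in mN, and its last mNmC value exceeds the others by over an order of magnitude. Transfer RNA genes tE(UUC)K (-3.15) and tA(AGC)P (-1.67), called lower in both fits, belong to families of near-identical copies and are uncertain.

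The same mutation was then compared between backgrounds, as mNmC over mN and as mC over wild type at 30 °C, which share no library. With 13 libraries, mC over wild type gave 788 genes higher (12.3%) and 157 lower (2.45%), and as labelled 11 higher (0.172%) and 1 lower (0.0156%). The difference between the backgrounds was tested directly. It was called in 300 genes as labelled (4.69%), of them 224 higher (3.5%) and 76 lower (1.19%), and in 2237 genes with 13 libraries (35%), 1417 higher (22.1%) and 820 lower (12.8%). Of the 2536 genes higher in mNmC than in mN, 242 were also higher in mC than in wild type, which is 9.54% of the first and 30.7% of the second list. Of the 678 lower genes, 21 were lower in both, 3.10% of the first and 13.4% of the second. The fold changes of all genes, described over genes that are no independent replicates, had a Pearson correlation of -0.09.

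Hsf1 targets rose in both backgrounds, and some rose more on top of mN. Of the 21, 20 rose in mNmC over mN and 17 in mC over wild type with 13 libraries, with medians of 1.28 and 0.74, and the difference was called higher in 12 and lower in none (22.1% and 12.8% of all genes). BTN2 rose by 2.59 ± 0.11 in mNmC over mN and by 1.30 ± 0.09 in mC over wild type, a difference of 1.29 ± 0.14 (adjusted p = 9.48e-05). CUR1 rose by 1.76 ± 0.15 over mN and stood at 0.29 ± 0.14 in mC over wild type (adjusted p = 0.176), a difference of 1.47 ± 0.20 (adjusted p = 0.000425). For SSA4 the changes were 2.21 ± 0.09 and 1.57 ± 0.08 and the difference 0.64 ± 0.12 (adjusted p = 0.00238). HSP82 changed by 1.67 ± 0.13 and 1.72 ± 0.12, and its difference of -0.05 ± 0.18 did not pass (adjusted p = 0.852). The differences of BTN2, CUR1 and SSA4 did not pass as labelled (adjusted p = 0.503, 0.0847 and 0.172), while that of MBF1 did, at 1.23 (adjusted p = 0.0217).

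**Figure D4:**
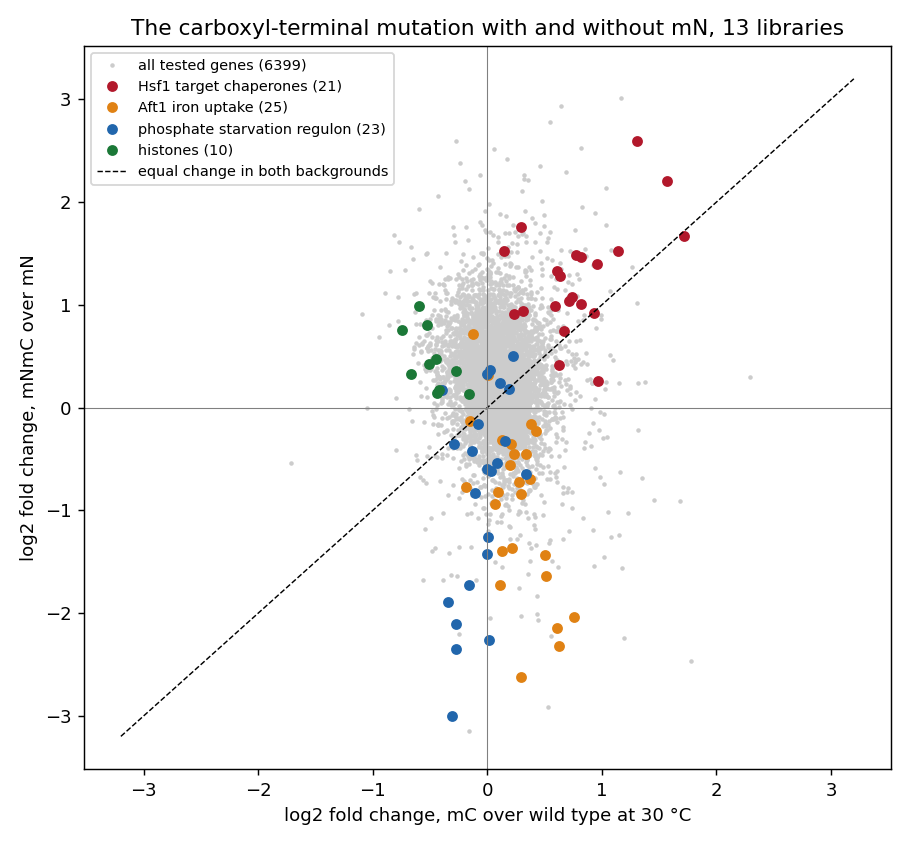
Log2 fold change of mNmC over mN (vertical axis) against that of mC over wild type at 30 °C (horizontal axis) with 13 libraries, with 1 point per tested gene. The dashed line marks equal change. Hsf1 targets lie to the upper right, iron uptake genes lie low on the vertical axis with values of up to 0.76 on the horizontal axis, and histones lie to the upper left.

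For iron uptake the fall over mN was not seen in mC over wild type. Of 25 iron uptake genes, 20 fell in mNmC over mN with 13 libraries. In mC over wild type 9 rose, none fell and the others were not called, at a median of 0.23. Of all genes, 12.3% rose and 2.45% fell there. The difference was called lower in 22 and higher in 1, where 12.8% and 22.1% of all genes were. FIT3 changed by -2.32 ± 0.14 over mN and by 0.63 ± 0.13 in mC over wild type (adjusted p = 0.00991), a difference of -2.95 ± 0.19 (adjusted p = 2.28e-06, and 0.000172 as labelled). OPT2 had the lowest difference of all, -4.25 ± 0.13 (adjusted p = 1.81e-08, and 0.0215 as labelled). It averaged 55.5 ± 2.49 FPKM in mC (n = 3) and 15.5 ± 1.43 FPKM in wild type (n = 3), so that the mNmC libraries 1 and 2 (16.3 and 15.7 FPKM) lay close to the wild-type mean. DAN1 had a difference of -3.44 ± 0.17 (adjusted p = 4.24e-07), FIT1 of -2.91 ± 0.38 (adjusted p = 0.000275) and tE(UUC)K of -2.98 ± 0.57 (adjusted p = 0.00281). In the phosphate list, 4 genes rose and 15 fell in mNmC over mN, none rose and 3 fell in mC over wild type (median 0.0004), and 14 differences were called lower and 1 higher.

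Among higher differences, RPL35A led at 3.97 ± 0.75 (adjusted p = 0.00245), though it was uneven within wild type as given above and did not pass as labelled (adjusted p = 0.422). NCE103 followed at 2.87 ± 0.47 (adjusted p = 0.00111), then CPP3 at 2.62 ± 0.34, CWP1 at 2.53 ± 0.17 and DPA10 at 2.50 ± 0.24 (adjusted p = 0.000257, 2.33e-06 and 3.57e-05). CWP1 rose by 1.93 ± 0.12 over mN and changed by -0.60 ± 0.11 in mC over wild type (adjusted p = 0.00655), and its difference also passed as labelled (adjusted p = 6.48e-05). Of 139 ribosomal protein genes, 72 rose over mN and 1 rose and 56 fell in mC over wild type, with 100 differences called higher and 5 lower. Of 10 histone genes, 7 rose over mN and 7 fell in mC over wild type, with 9 differences called higher. HHF1 for example averaged 1150.4 ± 149 FPKM in mC (n = 3) and 1734 ± 109 FPKM in wild type (n = 3). Over all tested genes, 22.1% of differences were called higher and 12.8% lower. In mC over wild type, 12.3% of all genes rose and 2.45% fell. By length, all genes had medians in mC over wild type of 0.05 under 500 bases and 0.14 from 2000 bases on. In mNmC over mN these medians were 0.55 and 0.06. The part of gene length in the differences of both lists was not tested. HSF1 itself had a difference of -1.499 ± 0.14 (adjusted p = 3.39e-05). On chromosome VI 87 of 133 differences were called lower, and on chromosome III 86 of 154 higher.

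**Figure D5:**
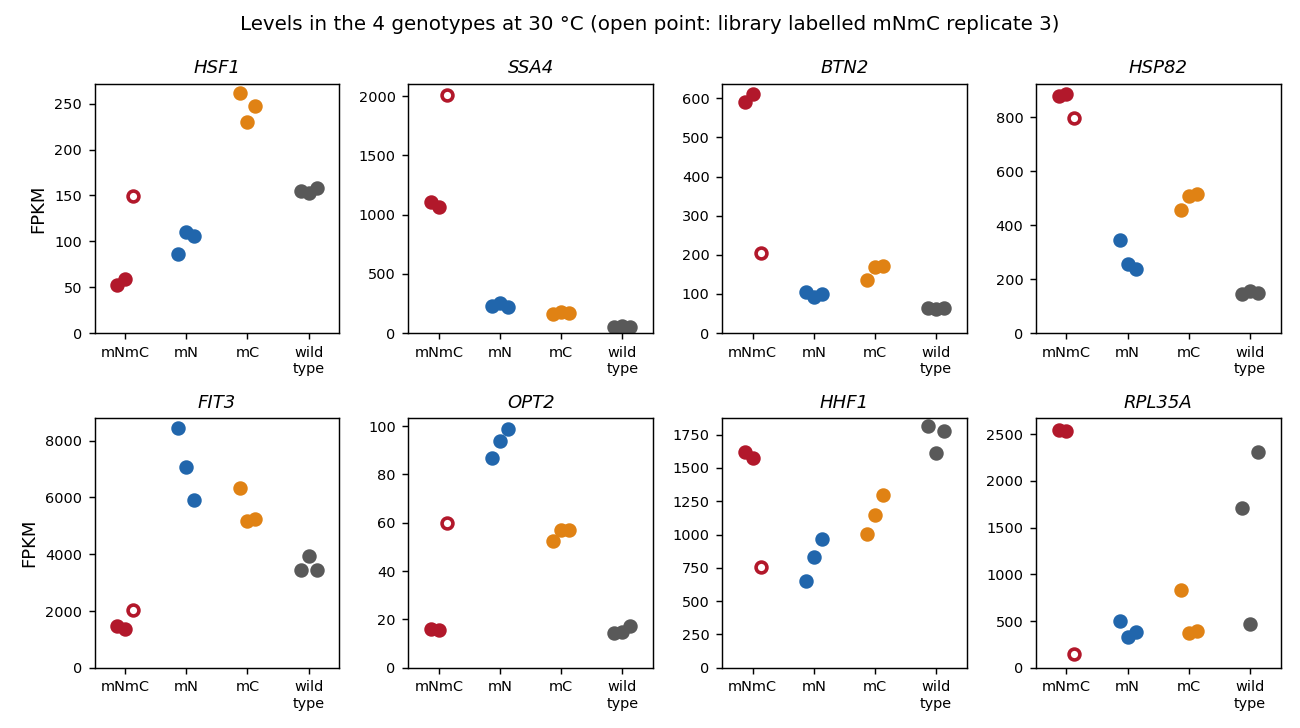
Level in each library (vertical axes, FPKM from 0, scaled per gene) of 8 genes in mNmC, mN, mC and wild type at 30 °C, with 1 point per library. The open point is the library labelled mNmC replicate 3. Filled mNmC points are highest for SSA4 (1105 and 1063 FPKM) and lowest for HSF1 (52.1 and 59.4 FPKM) and FIT3 (1477 and 1353 FPKM).

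The changes were also set beside the heat response of wild type, 37 °C over 30 °C with 13 libraries, which shares no library with mNmC over mN and called 3008 genes higher (47%) and 1209 lower (18.9%). Of the 2536 genes higher in mNmC, 1205 were higher with heat, 47.5% of the first list and 40.1% of the second, close to the background. Of the 391 that rose by more than 1, 223 were higher with heat (57.0%) and 38 lower. Of the 90 that fell by more than 1, 27 were lower with heat (30.0%) and 38 higher. Hsf1 targets had medians of 1.28 in mNmC over mN and 1.12 with heat, Msn2/4 genes 0.01 and 2.996, and ribosome biogenesis genes 0.49 and -0.91. BTN2 changed by 2.59 in mNmC over mN and by 1.71 with heat, whereas SSA4 changed by 2.21 and 5.02. The fold changes correlated across genes at 0.12 (Pearson).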

How the data were processed

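Messenger RNA was measured in 15 libraries of 5 groups with 3 replicates each. Per the labels' protocols, RNA was selected on oligo(dT) beads, and marking of strand is not stated. HTSeq 0.6.1, TopHat2 2.0.12 and Bowtie2 2.2.3 are the tools listed in the submitters' processing notes. Neither build, annotation nor filter was found in the sources used here. The authors deposited 1 table of FPKM per gene and library, which holds 7126 genes, 346 of them at 0 in every library. Multiplied by gene length, 99.2% to 99.3% of the values of 5766 genes with a single exon were whole multiples of 1 read within 0.01 read, which gave the depths. They range from 15462618 to 25409519 reads over all libraries.

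The deposited FPKM were turned into log2(FPKM + 1) and fitted with limma 3.58.1 (R 4.3.3) as group means over all 15 libraries, with the prior spread following the mean level. P-values were adjusted by Benjamini-Hochberg over 6399 genes and called under 0.05. On the log2(FPKM + 1) scale the changes of low genes are understated. The fit with 13 libraries leaves out mNmC replicate 3 and wild type 37 °C replicate 3. The script was tested on simulated data. Alternatives were other pseudocounts, filters and scalings, the replicate number as a block, and each mNmC and mN library left out. The fit with 12 libraries, the chromosomes, the Aft1 and Pho4 motifs, and the lengths were added after the data were seen. The members and lists were chosen with earlier results of these data known. A list was described by its counts and median.

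Most genes were named by rule. HSF1 was named, and so were Hsf1 targets, though not all of them. So were the 12 highest and 12 lowest by the fit with 13 libraries among genes called the same way as labelled, with no overlap and at least 10 FPKM in the higher group. The 8 highest and 8 lowest called with 13 libraries only, up to 4 genes per list and the 5 highest and 5 lowest differences between backgrounds were named too. Further genes of the iron and phosphate lists, such as ARN2 and PHO5, were named outside these rules, as were ACT1 and TUB2. Of 7126 identifiers, 6048 matched R64, from which lengths and promoters were taken, and a gene's chromosome was read from its systematic name. Genes with near-identical copies (pairs such as PHO11 and PHO12, HSC82 and HSP82 or SSA1 and SSA2, ribosomal protein pairs, transfer RNA genes) may share reads, and overlapping or antisense genes cannot be told apart.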

Additional observations from a re-analysis of the deposited data

Results flagged for a closer look

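The change from mN to mNmC differed from that from wild type to mC in 300 genes as labelled and in 2237 with 13 libraries. This is by the test of the difference itself. With 13 libraries, 87 of 133 genes of chromosome VI were called lower and 86 of 154 of chromosome III higher. These chromosomes were shifted in mNmC replicates 1 and 2 and not in mN, mC or wild type at 30 °C. For their genes, the mutation and the shift cannot be told apart. The values below are log2 differences with 13 libraries, mNmC over mN less mC over wild type.

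Higher differences were found in RPL35A (3.97), NCE103 (2.87), CPP3 (2.62), CWP1 (2.53) and DPA10 (2.50). RPL35A varied widely within wild type (1494 ± 939 FPKM, SD, n = 3). Lower differences were found in OPT2 (-4.25), DAN1 (-3.44), tE(UUC)K (-2.98), FIT3 (-2.95) and FIT1 (-2.91). HSF1 itself stood at -1.50, with 52.1 and 59.4 FPKM in mNmC replicates 1 and 2, 86.1, 109.7 and 106 FPKM in mN, 246 ± 15.5 FPKM in mC (n = 3) and 155 ± 2.97 FPKM in wild type (n = 3).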

How the results depend on the processing

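As labelled, 1284 genes were higher, 171 lower, 300 differed between backgrounds and 18 Hsf1 targets rose. With 13 libraries these counts were 2536, 678, 2237 and 20. Upper-quartile scaling gave 558 higher and 452 lower genes as labelled, and 1335 lower and 2359 different with 13 libraries. Fitting mNmC and mN alone gave 145 higher genes, 16 lower and 8 Hsf1 targets with 6 libraries, and 279 lower with 5. The 12 libraries without mN replicate 1 gave 2518 higher, 877 lower and 2897 different, and with upper-quartile scaling 1444 lower and 3003 different. Leaving out 1 mNmC or mN library at a time gave 758 (without mN replicate 1) to 1455 (without mNmC replicate 3) higher genes. Lower genes then numbered 101 (without mN replicate 2) to 237 (without mNmC replicate 3). Different genes numbered 128 (without mNmC replicate 2) to 547 (without mNmC replicate 3), and 16 to 20 Hsf1 targets rose. No library of mC or wild type was left out singly. Other pseudocounts and filters stayed within 1.5 times the counts as labelled. So did a recount of the fit as labelled over genes outside chromosomes III and VI, for which nothing was fitted again. Same-numbered mNmC and mN libraries had deviations correlated at 0.005, -0.049 and -0.073. The mNmC deviations were taken from a mean that includes the outlying library labelled replicate 3. These values therefore cannot decide whether the numbers pair the libraries. With the replicate block, 107 genes were lower and 158 differed as labelled, and 2789 were higher, 675 lower and 2458 different with 13 libraries.

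PGM2 turned from 0.65 as labelled to -0.74 with 13 libraries and with 5, -0.80 with 12, and with 13 libraries also -0.96 scaled and -0.70 blocked (12 scaled, -0.94). GPH1 (0.49 as labelled) went to -0.68 with 13 libraries, with 5 and with 12, and with 13 also -0.90 scaled and -0.61 blocked (12 scaled, -0.81). Scaling or the block as labelled turned neither gene, and without mNmC replicate 3 alone both values are those with 13 libraries. HIS3 (0.00 as labelled) stood at -0.61 with 13 libraries and scaling, -0.64 with 12 and -0.78 with 12 scaled. Fewer samples enter the fits of 5, 6, 12 and 13 libraries, and the cause was not tested otherwise. With 2 mNmC libraries beside 3 mN libraries, the spread rests on the other groups as well. Depth limits genes near 1 FPKM.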
